A study of Bos taurus with 8 samples.

Results

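DEFB7, DEFB10 and DEFB13 are bovine beta-defensin genes, and they are 3 of the 21861 genes counted in each single-cell RNA library of this study. They were chosen by name, after earlier results of these data had placed them among the largest falls with lipopolysaccharide (LPS) in blood mononuclear cells, so their RNA values with and without LPS are given as a description and support nothing. The files list them as DEFB7 (ENSBTAG00000051383), DEFB10 (ENSBTAG00000048737) and DEFB13 (ENSBTAG00000050630).

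The blood came from 4 lactating Holstein females of 2 years of age. It was pooled and divided into 4 parts, of which 1 received no LPS and the others were kept with LPS at 2 µg/ml and 37 °C for 2 h, 4 h or 8 h before the peripheral blood mononuclear cells (PBMCs) were isolated. From every part 1 library was made for scRNA-seq and 1 for scATAC-seq, so the animals are not replicates, and no replicate stands behind a difference and no p-value is given. No incubation time is given for the part without LPS, and the effects of LPS, of time in culture and of the library itself cannot be told apart.

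Beta-defensins are short, positively charged peptides held together by disulphide bonds between conserved cysteines, and they kill bacteria by disrupting their membranes. Cattle carry a large cluster of these genes, whose products were first purified from neutrophil granules and from the epithelia of the airway and tongue. In epithelia, LPS sensed through CD14, LY96 and TLR4 is known to raise some of them, such as TAP and LAP, through NF-kB, and beta-defensins can also attract leukocytes through the chemokine receptors CCR6 and CCR2. Several of the cluster's genes are close copies of each other. The RefSeq table of assembly ARS-UCD2.0 was used here for names and gene order only. Among the beta-defensin genes taken by name, it lists DEFB13, DEFB10 and DEFB7 in this order between LAP and DEFB1. Whether other genes lie between them was not looked at. The same table gives DEFB7 the other names BNBD-9, bnbd3 and bnbd8 and gives DEFB13 the names BNBD-11 and lap-like, so how reads of near-identical copies were divided among these genes is uncertain.

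After filters on genes, unique molecular identifiers (UMIs, the count of captured RNA molecules) and mitochondrial UMIs, 8440 cells were kept without LPS, 10376 after 2 h, 7929 after 4 h and 3830 after 8 h, with 30879324 to 63720614 UMIs per library and a median of 4190.5 to 5053 UMIs per cell. Between 8 and 24 cell barcodes were shared by each pair of libraries. Cells were called CD14+ CSF1R+ when they held at least 1 UMI of CD14, the LPS co-receptor, and at least 1 of CSF1R, the receptor for the monocyte growth factor M-CSF. There were 876 such cells without LPS (10.4% of the cells kept), 308 at 2 h (2.97%), 156 at 4 h (1.97%) and 198 at 8 h (5.17%). They held a median of 6 or 7 of the 10 other monocyte marker genes on the list used here. They were far deeper than other cells, with medians of 16755.5, 19875, 25411 and 31444.5 UMIs in the order no LPS, 2 h, 4 h and 8 h, against 3961 to 4899 in all others. T cell genes were detected in 25.3%, 29.2%, 46.8% and 50.0% of them and B cell genes in 32.0%, 40.6%, 53.8% and 63.1%, and the part of cell doublets or free RNA in the results was not tested. CSF1R itself was lower in these cells with LPS, at 132, 71.9, 60.4 and 78.7 per 1000000 UMIs (CPM), and 1 UMI of it is needed to enter the class. All intervals below are 95% intervals that cover counting error only.

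In the CD14+ CSF1R+ cells the 3 genes together made up 1218 CPM without LPS, 603 CPM after 2 h, 208 CPM after 4 h and 459 CPM after 8 h. The level was highest without LPS and lowest at 4 h, and it was higher at 8 h than at 4 h. Relative to no LPS it was 2.02-fold lower (1.96 to 2.08) at 2 h, 5.85-fold lower (5.51 to 6.22) at 4 h and 2.65-fold lower (2.56 to 2.75) at 8 h. The 3 genes shared this order of the libraries with 1 difference, in that DEFB10 was as low at 2 h as at 8 h.

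DEFB7 gave most of the beta-defensin UMIs of the 3 genes, with 18579 UMIs in the CD14+ CSF1R+ cells without LPS, 4513 after 2 h, 1037 after 4 h and 3396 after 8 h. These are 989 CPM (975 to 1003), 532 CPM (516 to 548), 196 CPM (185 to 209) and 418 CPM (404 to 432). No interval overlapped another, and the 4 h library was the lowest. The level was 1.86-fold lower than without LPS at 2 h (1.80 to 1.92), 5.03-fold lower at 4 h (4.73 to 5.36) and 2.37-fold lower at 8 h (2.28 to 2.46). From 4 h to 8 h it was 2.13 times higher (1.98 to 2.28).

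DEFB10 had 1663 UMIs in these cells without LPS, 278 after 2 h, 48 after 4 h and 269 after 8 h. Its level was 88.5 CPM (84.3 to 92.9) without LPS, 32.8 CPM (29.0 to 36.8) at 2 h, 9.09 CPM (6.70 to 12.1) at 4 h and 33.1 CPM (29.2 to 37.3) at 8 h. The 2 h and 8 h libraries were alike within counting error, at 2.70-fold (2.38 to 3.08) and 2.68-fold (2.35 to 3.06) below the library without LPS. At 4 h the level was 9.74-fold lower (7.31 to 13.3).

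DEFB13 showed the largest fold of the 3. It had 2644 UMIs in the CD14+ CSF1R+ cells without LPS, 329 after 2 h, 14 after 4 h and 68 after 8 h, or 141 CPM (135 to 146), 38.8 CPM (34.7 to 43.2), 2.65 CPM (1.45 to 4.45) and 8.36 CPM (6.49 to 10.6). It was 3.63-fold lower than without LPS at 2 h (3.24 to 4.08), 53.1-fold lower at 4 h (31.6 to 97.2) and 16.8-fold lower at 8 h (13.2 to 21.7). From 4 h to 8 h it was 3.15 times higher (1.76 to 6.07), and at 8 h it lay below its own 2 h value with no overlap of the intervals, as DEFB7 did.

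**Figure D1:**
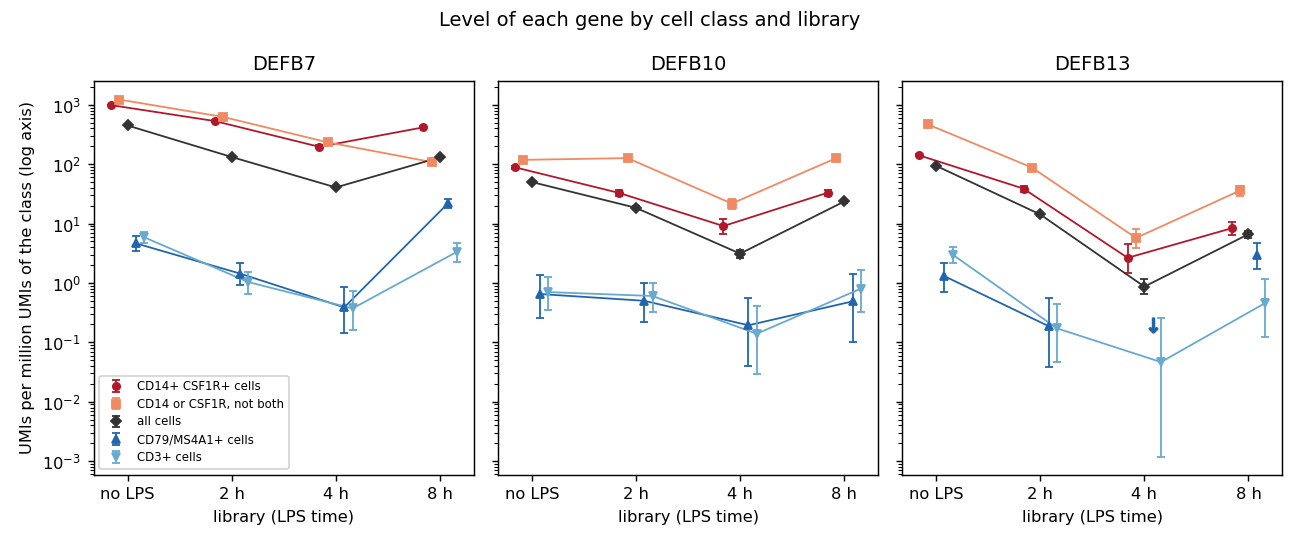
Level of DEFB7, DEFB10 and DEFB13 (CPM, log axis) in each library, with 95% counting intervals. The curves are CD14+ CSF1R+ cells, cells with only CD14 or only CSF1R, all cells, T cell gene-positive cells and B cell gene-positive cells. An arrow marks the level of 3 UMIs where none was counted. In CD14+ CSF1R+ cells DEFB7 went from 989 to 196 CPM between no LPS and 4 h, and DEFB13 from 141 to 2.65 CPM.

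The intervals above treat every UMI as independent, and the UMIs were held by few cells. Among the 876 CD14+ CSF1R+ cells without LPS, the 10 cells with the most UMIs of a gene held 11.8% of all DEFB7 UMIs, 30.1% of DEFB10 and 56.8% of DEFB13. At 4 h the same figures were 37.8%, 83.3% and 92.9%. At least 50% of the DEFB13 UMIs lay in 8, 4, 4 and 13 cells in the order no LPS, 2 h, 4 h and 8 h, and for DEFB10 the numbers were 31, 12, 2 and 11. DEFB7 was spread over more cells in every library, with 77, 30, 16 and 20 by this measure. Leaving out the 10 richest cells of each library, chosen with the values known, put DEFB7 at 0.483, 0.150 and 0.344 of its level without LPS at 2 h, 4 h and 8 h, DEFB10 at 0.297, 0.0274 and 0.298, and DEFB13 at 0.153, 0.0033 and 0.0818. All 9 ratios stayed below 1, but 10 cells are a larger part of 308, 156 or 198 cells than of 876. At 4 h DEFB13 was found in 11 cells and DEFB10 in 18, against 228 and 245 without LPS. The LPS libraries were thus trimmed harder, which lowers these ratios, so their direction is not read as a check of the falls.

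The share of cells with a UMI gives the same comparison without the weight of the richest cells. Unthinned, the shares of CD14+ CSF1R+ cells with a DEFB7 UMI were 63.6%, 58.8%, 55.1% and 64.1% in the order no LPS, 2 h, 4 h and 8 h, with the depth of the cells not evened out. With each cell thinned to 1000 UMIs, and 0 to 8 shallower cells per library left out, the DEFB7 shares were 35.6% (32.4 to 38.9), 29.5% (24.5 to 35.0), 11.5% (6.98 to 17.6) and 28.9% (22.7 to 35.8). Only the 4 h share lay clear of the others.

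For DEFB10 the unthinned shares of these cells were 28.0%, 22.1%, 11.5% and 27.3% in the same order, and the thinned shares were 8.64% (6.86 to 10.7), 2.92% (1.34 to 5.47), 0.641% (0.0162 to 3.52) and 5.08% (2.46 to 9.14). The 2 h and 4 h shares were below that without LPS with no overlap of the intervals, while the 8 h interval overlapped it. For DEFB13 they were 228 of 876 cells, 61 of 308, 11 of 156 and 45 of 198 unthinned, and 5.65% (4.21 to 7.39), 3.90% (2.03 to 6.71), 0% and 1.52% (0.315 to 4.39) thinned. The value at 4 h was 0 of 156 cells, which allows a share of up to 1.92%. Thinned shares of DEFB10 and DEFB13 with LPS rest on 0 to 12 cells.

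Among cells with at least 1 UMI of the gene, the amount per cell was also lower. DEFB7 had a median of 9.19 UMIs per 10000 UMIs of the cell without LPS, 6.13 after 2 h, 2.31 after 4 h and 4.13 after 8 h. The richest cell reached 330 per 10000 without LPS and 119, 28.9 and 68.4 at 2 h, 4 h and 8 h. There were 18 cells above 100 DEFB7 UMIs per 10000 without LPS, 1 at 2 h and 0 at 4 h and 8 h. These medians are bound to depth as well, since 1 UMI is a smaller share of a deeper cell.

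**Figure D2:**
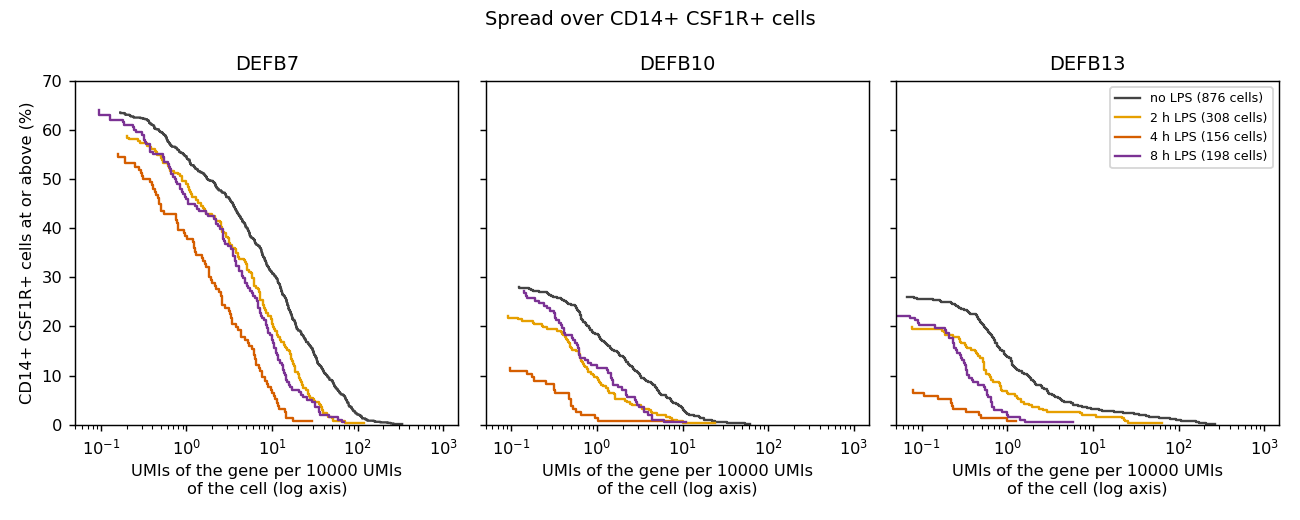
Share of all CD14+ CSF1R+ cells (percent) at or above each number of UMIs of the gene per 10000 UMIs of the cell (log axis). Each panel is a gene and each curve a library. The highest cells thin out with LPS. Among cells with a DEFB7 UMI the medians, which are not drawn, are 9.19, 6.13, 2.31 and 4.13 from no LPS to 8 h.

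Cells with DEFB10 or DEFB13 mostly held DEFB7 too. In the library without LPS, with each CD14+ CSF1R+ cell thinned to 2000 UMIs, DEFB10 was found in 97 of 376 cells with DEFB7 (25.8%, 21.4 to 30.5) and in 2.12% (1.02 to 3.86) of the 472 cells without it. DEFB13 was found in 71 of the cells with DEFB7 (18.9%, 15.1 to 23.2) and in 1.06% (0.345 to 2.45) of those without it. Conversely, 90.7% of the 107 cells with DEFB10 and 93.4% of the 76 cells with DEFB13 had DEFB7, so detection was nested, with DEFB7 alone in 240 cells, DEFB10 alone in 10 and DEFB13 alone in 5. All 3 genes were found in 32 cells.

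The nesting was seen again in the LPS libraries where counts allowed it. At 2 h, DEFB10 was in 13.5% (7.77 to 21.3) of 111 cells with DEFB7 and in 3.06% (1.13 to 6.54) of 196 cells without it. At 8 h these shares were 9.72% (4.00 to 19.0) of 72 cells and 2.50% (0.519 to 7.13) of 120 cells, whose intervals overlap. At 4 h, 2 cells had DEFB10 after thinning and none had DEFB13, and no comparison could be made. These are cells of 1 library each, and shared reads between similar genes would also raise joint detection, which was not tested.

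Other beta-defensin genes did not all follow DEFB7 in these cells. LAP, the lingual antimicrobial peptide, was in 11.2% of cells with DEFB7 and 3.81% of cells without it in the library without LPS. DEFB4A was in 28.2% (23.7 to 33.0) and 19.7% (16.2 to 23.6), with no overlap of the intervals. TAP, the tracheal antimicrobial peptide, was in 14.9% (11.5 to 18.9) and 12.1% (9.28 to 15.4), which do not differ beyond counting error. At 8 h TAP was in 18.1% (9.98 to 28.9) of the 72 cells with DEFB7 and in 34.2% (25.8 to 43.4) of the 120 without, with intervals that overlap. DEFB4A was then in 27.8% and 27.5% of these cells and LAP in 1.39% and 1.67%.

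The CD14+ CSF1R+ cells that carried a member differed in other genes. Of 848 cells of the library without LPS thinned to 2000 UMIs (28 shallower ones left out), 391 had a UMI of a member and 457 had none, and 978 genes with at least 200 UMIs were compared as a description. The named genes with the largest excess in cells with a member were IL1R2, the decoy receptor of interleukin-1 (log2 ratio 1.62), CCL20, the chemokine ligand of CCR6 (1.35), and S100A9, a calgranulin subunit (1.33). The named genes with the largest deficit were C1QA, a chain of complement C1q (log2 ratio -2.45), NUPR1, a stress-response nuclear protein (-1.82), SLAMF7, a surface receptor (-1.50), and LGMN, a lysosomal protease (-1.50). The other 2 C1q chains were lower too, at -2.33 for C1QB and -2.05 for C1QC.

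On the marker lists, cells with a member had more FCN1, a classical monocyte marker, at 950 CPM against 442 CPM, and more CD14, at 2280 CPM against 1608 CPM. FCGR3A, which encodes CD16 of non-classical monocytes, was lower in them at a log2 ratio of -1.40 (18 against 57 UMIs). Not all monocyte markers were higher, since CD68 was at 554 CPM against 810 CPM and FCGR1A at 71.6 CPM against 109 CPM. CSF1R was equal within counting error, at 180 CPM and 178 CPM, as was CD163, at 34.5 CPM and 40.5 CPM. Of the 9 neutrophil markers, MMP9 had 58 and 78 UMIs, a difference within counting error, and the other 8 had 0 to 2 UMIs on either side.

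Outside the CD14+ CSF1R+ class, most of the remaining member UMIs were in cells that held CD14 or CSF1R but not both, called single-marker cells here. These were 812 cells without LPS, 551 after 2 h, 340 after 4 h and 472 after 8 h, with median depths of 4056.5, 7643, 9794.5 and 2289 UMIs. CD14+ CSF1R+ cells held 66.6%, 48.7%, 43.7% and 75.2% of all member UMIs in the order no LPS, 2 h, 4 h and 8 h, and single-marker cells held 30.8%, 48.1%, 52.6% and 16.5%. The 12 monocyte markers summed to 2584, 1708, 1739 and 984 CPM in single-marker cells, against 4121, 2477, 2326 and 2723 CPM in CD14+ CSF1R+ cells. The 12 include CD14 and CSF1R, which define the classes, so the gap between the classes is partly set by the rule. Of the 10 other markers, single-marker cells held a median of 2, 2, 3 and 1 and CD14+ CSF1R+ cells 7, 6, 6 and 7, with depth not evened out. Among single-marker cells, those at 8 h were the shallowest and the poorest in these markers.

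In single-marker cells DEFB7 was at 1227, 624, 234 and 109 CPM and DEFB13 at 469, 88.0, 5.73 and 36.1 CPM in the same order. Both genes were again highest without LPS. At 8 h, 97 of the 109 DEFB13 UMIs of these cells came from 1 cell. DEFB10 was at 118, 127, 21.7 and 126 CPM, and a single cell gave 444 of its 763 UMIs at 2 h and another 342 of its 380 UMIs at 8 h.

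Some of the cells richest in DEFB10 held genes known from granulocytes. In the library without LPS, the richest DEFB10 cell had 6118 UMIs, of which 237 were DEFB10, 591 S100A8 and 74 DEFB4A, with CSF3R but no CD14 and no CSF1R. The next cells, with 134 and 101 DEFB10 UMIs, were CD14+ CSF1R+. The richest at 2 h had 9706 UMIs, with 444 of DEFB10, 521 of DEFB4A, 458 of S100A8, 3 of the neutrophil chemokine receptor CXCR1 and 1 of CD14. The richest at 8 h had 11960 UMIs, with 342 of DEFB10, 874 of S100A8 and 2 each of CSF3R and CXCR1.

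Cells with CSF3R, the G-CSF receptor of granulocytes, and neither CD14 nor CSF1R numbered 65, 144, 132 and 51 in the 4 libraries. Of these, 5 cells held 490 DEFB10 UMIs without LPS, 5 held 98 at 2 h, 3 held 10 at 4 h and 3 held 42 at 8 h. They held 16.9%, 8.35%, 5.68% and 5.77% of all DEFB10 UMIs in the library. The same cells held 0.177%, 0.831%, 2.36% and 0.273% of DEFB7 and 0.0733%, 2.64%, 8.16% and 0% of DEFB13, whose 4 h share was above that of DEFB10 but rests on 49 UMIs in all. The 9 neutrophil markers summed to 89.7, 17.6, 35.0 and 39.7 CPM in CD14+ CSF1R+ cells, where MMP8 was at 0 in every library. Without CSF3R, which defines the class, the other 8 summed to 945, 299, 293 and 226 CPM in the CSF3R+ cells and to 86.2, 11.5, 21.8 and 30.0 CPM in CD14+ CSF1R+ cells. CSF3R, with or without monocyte markers, was found in 9, 4, 7 and 5 of the 20 cells richest in DEFB7, 11, 8, 7 and 6 of those richest in DEFB10 and 4, 5, 10 and 4 of those richest in DEFB13. The lowest of these 20 cells held 1 DEFB13 UMI at 4 h and at 8 h and 2 DEFB10 UMIs at 4 h, so these sets reach cells that are not rich. The counts were not compared with the share of CSF3R in other cells. By share of UMIs, most of each gene lay in cells with CD14 or CSF1R in every library.

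**Figure D3:**
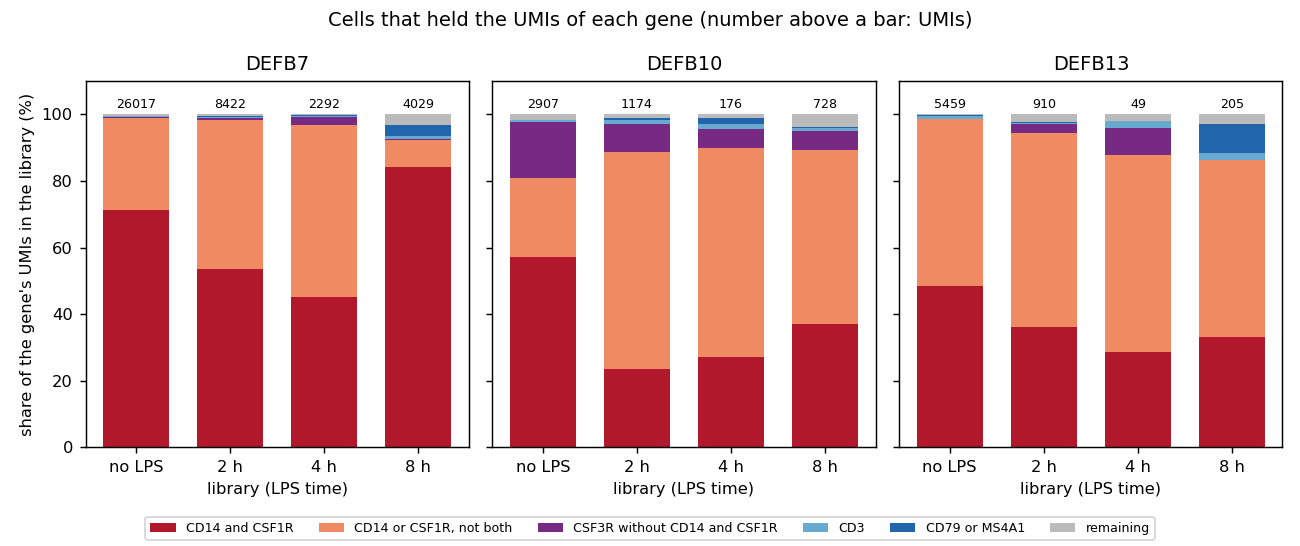
Share of each gene's UMIs in the library that lay in each class of cells, by library (percent, stacked bars that reach 100%). CD14+ CSF1R+ and single-marker cells together hold most of each gene in every library, while CSF3R+ cells hold 16.9% of DEFB10 without LPS and 8.16% of DEFB13 at 4 h, and B cell gene-positive cells hold 8.78% of DEFB13 at 8 h.

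Lymphocytes held few member UMIs. Cells with T cell genes and no CD14, CSF1R, CSF3R or B cell genes had DEFB7 at 5.88, 1.04, 0.373 and 3.33 CPM, with median depths of 4084 to 5347 UMIs. Thinned to 1000 UMIs, 0.551% (0.327 to 0.869) of them had a DEFB7 UMI without LPS, compared with 35.6% of CD14+ CSF1R+ cells. The DEFB7 level in them was 0.594% of that in CD14+ CSF1R+ cells without LPS, and the 10 other monocyte markers were at a median of 0.774% by the same measure. DEFB10 was at 0.794% and DEFB13 at 2.13%. Whether the member UMIs of T cell gene-positive cells were free RNA was not tested. In B cell gene-positive cells DEFB7 was at 4.65, 1.44, 0.388 and 22.2 CPM. The 8 h value came from 1 cell of 1582 UMIs, which held 115 of the 136 DEFB7 UMIs and 14 of the 18 DEFB13 UMIs.

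Summed over all cells kept, the 3 genes were at 593, 165, 44.6 and 161 CPM in the order no LPS, 2 h, 4 h and 8 h. DEFB7 was at 449, 132, 40.6 and 130 CPM, DEFB10 at 50.1, 18.4, 3.12 and 23.6 CPM and DEFB13 at 94.1, 14.3, 0.869 and 6.64 CPM. The sum was 3.60-fold lower at 2 h (3.52 to 3.68), 13.3-fold lower at 4 h (12.8 to 13.8) and 3.69-fold lower at 8 h (3.58 to 3.80) than without LPS. DEFB13 was 108-fold lower at 4 h (81.8 to 147), on 49 UMIs. In these sums fewer cells of a type and less RNA per cell cannot be told apart. CD14+ CSF1R+ cells gave 32.4% of all UMIs of the library without LPS and 13.3%, 9.36% and 26.3% of those with LPS.

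Against other genes, a member was counted when it was at least 2-fold lower than without LPS on the scale log2((CPM + 1)/(CPM + 1)), among genes with at least 20 UMIs over both libraries. Over all cells, 2.75% of genes were lower by this measure after 2 h, 3.75% after 4 h and 1.18% after 8 h, and all 3 members were among them each time. None was among the 0.82%, 1.25% and 0.479% of genes that were as much higher at these times. In CD14+ CSF1R+ cells, 5.73% of 10251 genes were lower at 2 h, 3.74% of 10176 at 4 h and 1.83% of 10392 at 8 h, and 2.36%, 3.27% and 3.22% were higher. There 2 of 3 members were counted at 2 h, where DEFB7 was at -0.89, and all 3 at 4 h and 8 h. The members were chosen for this contrast, so nothing is read from these counts.

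By rank of the fall over all cells at 4 h, among 9769 genes with at least 200 UMIs, DEFB13 was rank 1 (log2 ratio -5.67), DEFB10 rank 6 (-3.63) and DEFB7 rank 8 (-3.43). Next to them lay F13A1, a coagulation factor subunit of monocytes (-3.91), MMP9 (-3.78), NRN1 (-3.72), CLEC12A, an inhibitory lectin of myeloid cells (-3.67), CD163 (-3.51), AREG (-3.35) and VCAN (-3.30). In CD14+ CSF1R+ cells the ranks at 4 h were 1 for DEFB13, 12 for DEFB10 and 28 for DEFB7 of 10176 genes. At 8 h they were 4, 82 and 116 of 10392 genes.

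The scale of the comparison shifted with the way libraries were scaled. In CD14+ CSF1R+ cells the median log2 ratio of all genes was -0.28 after 2 h, 0.07 after 4 h and 0.19 after 8 h, and scaling by edgeR TMM factors moved it by 0.25, -0.09 and -0.20. Of the genes past 2-fold, 70.8% were lower after 2 h, 53.4% after 4 h and 36.2% after 8 h, against 45.0%, 65.0% and 64.6% with TMM and 42.9%, 62.5% and 65.1% with DESeq2 size factors. Over all cells 71.2% were lower at 8 h, against 85.8% and 86.2%. The members kept their direction, with log2 ratios under TMM of -0.60, -2.43 and -1.47 for DEFB7, -1.12, -3.24 and -1.61 for DEFB10 and -1.55, -5.36 and -4.12 for DEFB13 at 2 h, 4 h and 8 h.

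**Figure D4:**
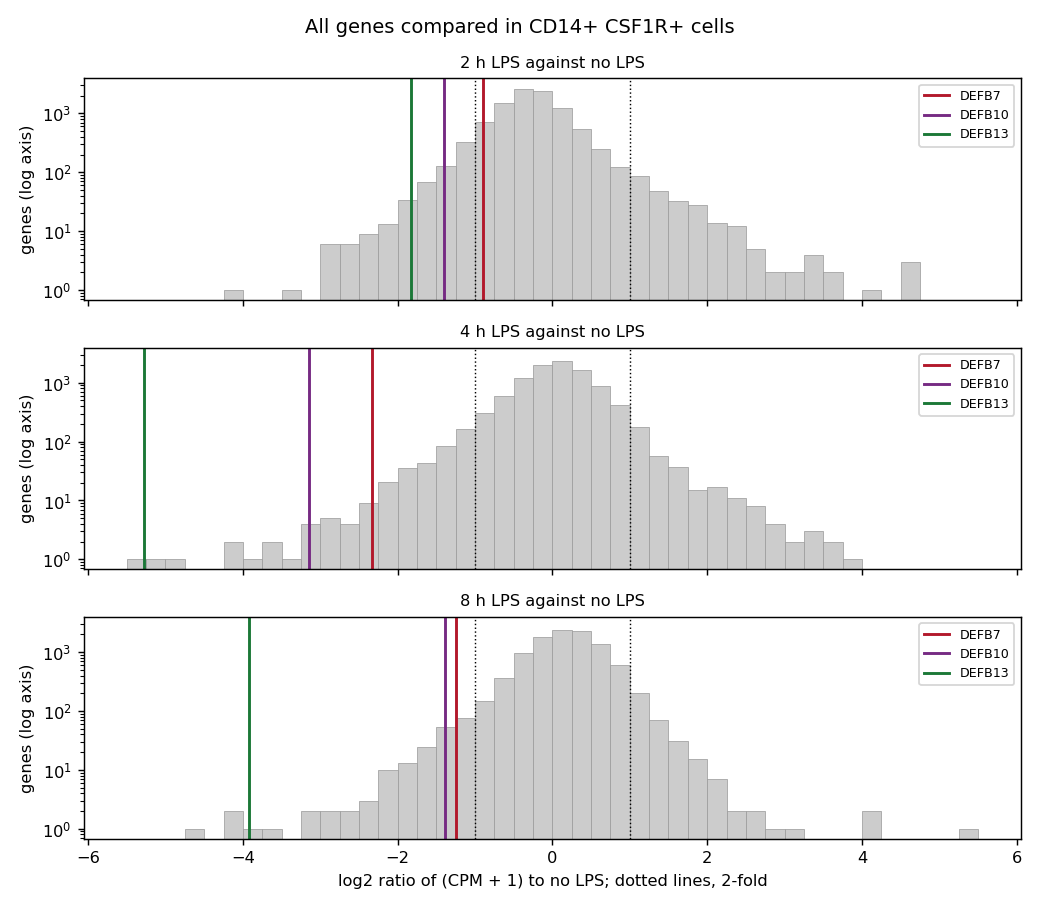
Distribution of log2 ratios to no LPS over all genes with at least 20 UMIs in CD14+ CSF1R+ cells, 1 panel per LPS time, with lines at DEFB7, DEFB10 and DEFB13. DEFB13 lies at -1.83, -5.28 and -3.92, and at 4 h no gene lies below it.

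The level at 8 h in CD14+ CSF1R+ cells depended most on which cells were kept. With the study's limit of 3000 genes per cell, which removes 355 of 876 of these cells without LPS, 144 of 308 at 2 h, 104 of 156 at 4 h and 152 of 198 at 8 h, the log2 ratio of the 3 genes summed was -0.49 at 8 h instead of -1.41. DEFB7 was then at 1398 CPM at 8 h and 1689 CPM without LPS, a log2 ratio of -0.27, and DEFB10 was at 90.3 and 138.7 CPM, a log2 ratio of -0.61. DEFB13 was still at -3.35. At 4 h the same limit gave larger falls, of -2.87 for DEFB7, -4.86 for DEFB10 and -7.06 for DEFB13. Before the limit DEFB10 was found in 18 of these cells and DEFB13 in 11, so their 2 values rest on few UMIs and depend on the pseudocount.

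The call at 2 h and 8 h also depended on the rule for the cells. When cells with CD14 or CSF1R were taken, DEFB10 was at -0.41 at 2 h and -0.71 at 8 h, where single cells gave much of its count, as above. When cells were taken by at least 3 of the 10 other monocyte markers, DEFB10 was at -0.45 and -0.70. When CD14+ CSF1R+ cells with a T or B cell gene were left out, DEFB7 was at -0.87 at 8 h. DEFB7 at 2 h passed 2-fold in 4 of 14 alternatives. Each member at 4 h, and DEFB13 at each time, was at least 2-fold lower in all 14.

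The wider beta-defensin family was taken from the files by name. Of 22 such genes, 14 had no UMI in any library, and 8 were compared in CD14+ CSF1R+ cells, the 3 members included. Of the 8, 4 were at least 2-fold lower after 2 h, 5 after 4 h and 5 after 8 h, where 5.73%, 3.74% and 1.83% of all genes were, and 1, TAP, was at least 2-fold higher at 8 h, beside 3.22% of all genes. The medians were -1.07, -1.50 and -1.32, beside -0.28, 0.07 and 0.19 over all genes. With TMM factors 4, 5 and 5 were lower and TAP was higher at 2 h and 8 h, and with DESeq2 size factors 3, 5 and 5 were lower. The list holds the members, whose fall chose them.

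TAP was at 344 CPM (336 to 352) without LPS, 641 CPM (624 to 658) at 2 h, 420 CPM (402 to 438) at 4 h and 962 CPM (941 to 983) at 8 h, so it was higher in every LPS library, and highest at 8 h. Its UMIs too were in few cells, with 53.3%, 66.2% and 52.3% of them in the 10 richest cells at 2 h, 4 h and 8 h. With the 10 richest cells of each library left out, TAP was at 1.32, 0.638 and 2.03 of its level without LPS. At 4 h the ratio thus fell below 1, but these were 10 of 54 cells with TAP, against 10 of 198 without LPS. The unequal trimming lowers these ratios, so no change of direction is read from them. The thinned share of cells with TAP was 10.0%, 15.9%, 15.4% and 20.3%.

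LAP was at 37.5, 14.5, 15.2 and 13.4 CPM, lower in each LPS library, with ratios of 0.387 (0.317 to 0.469), 0.404 (0.317 to 0.510) and 0.358 (0.290 to 0.438). Without the 10 richest cells of each library, a trimming that again weighs more on the LPS libraries, the ratios were 0.299, 0.134 and 0.176. DEFB4A was at 208, 273, 121 and 208 CPM, higher at 2 h, lower at 4 h and equal within counting error at 8 h, where TMM scaling gave -0.23. EBD, the enteric beta-defensin, was at 9.42, 3.42, 2.08 and 2.95 CPM. DEFB1 was at 9.05, 9.43, 4.73 and 13.0 CPM on 25 to 170 UMIs.

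**Figure D5:**
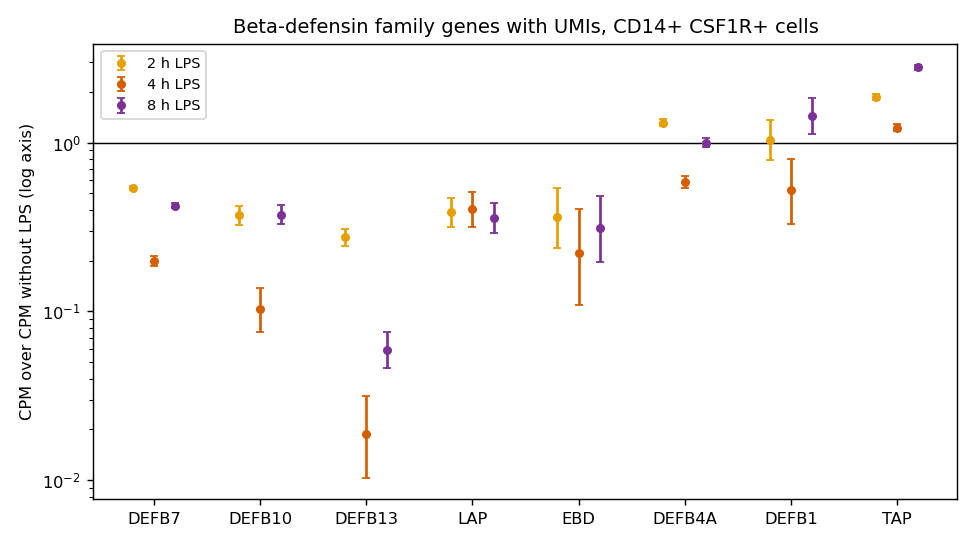
Level (CPM) relative to no LPS of the 8 beta-defensin genes with UMIs, in CD14+ CSF1R+ cells at 2 h, 4 h and 8 h. DEFB13, DEFB10, DEFB7, LAP and EBD are below their level without LPS at each time. TAP is above its level without LPS at each time. It is not at 4 h when the 10 richest cells of each library, a larger part of the LPS cells, are left out. At 8 h TAP is at 2.80 times its level without LPS, a log2 ratio of 1.48.

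Other antimicrobial protein genes were also listed. Of 28 listed, 10 could be compared in CD14+ CSF1R+ cells, and LCN2 (lipocalin) and RNASE6 were at least 2-fold lower after 2 h, LCN2 after 4 h and none after 8 h, with none higher, beside 5.73%, 3.74% and 1.83% of all genes lower. The medians were -0.44, -0.25 and 0.22. S100A8, the partner of S100A9, was at 3017, 2520, 2675 and 4088 CPM, and S100A9 at 2779, 2343, 3148 and 3687 CPM. Over all cells 6 of 12 of these genes were lower at 2 h, 4 of 11 at 4 h and 2 of 11 at 8 h, beside 2.75%, 3.75% and 1.18% of all genes.

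Some genes of the TLR4 to NF-kB route, through which LPS acts, were higher at 2 h in the same cells. Of 29 genes, 8 were at least 2-fold higher at 2 h and 2 lower, 1 was higher at 4 h, and none had moved so far at 8 h, beside 2.36%, 3.27% and 3.22% of all genes higher and 5.73%, 3.74% and 1.83% lower at these times. TNFAIP3, a feedback inhibitor of NF-kB, was at 222, 971, 529 and 394 CPM in the order no LPS, 2 h, 4 h and 8 h. NFKB1 was at 228, 549, 366 and 255 CPM and IL1B, the interleukin-1 beta gene, at 6488, 16036, 9950 and 8713 CPM. These 3 genes were highest at 2 h, while the members were lowest at 4 h. TLR4 was at 72.6, 76.0, 74.6 and 70.1 CPM and its partner LY96 at 51.7, 37.0, 42.6 and 49.7 CPM. With either other scaling 10 genes were higher at 2 h and none lower.

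A part of the monocyte markers was lower in the same cells. Of the 12 genes on the panel, 4 were at least 2-fold lower after 2 h, 6 after 4 h and 3 after 8 h, beside 5.73%, 3.74% and 1.83% of all genes, and none was as much higher, with medians of -0.78, -0.95 and -0.70, and with TMM factors the counts were 2, 6 and 5. CD14 was at 1690, 1066, 1114 and 1111 CPM and MS4A7 at 63.4, 66.0, 100.6 and 105 CPM, while VCAN, a proteoglycan of classical monocytes, was at 1087, 563, 268 and 364 CPM. CD163, a haemoglobin scavenger receptor, was at 37.3, 6.60, 1.33 and 10.5 CPM, with its lowest value at 4 h as for the members. Of the classical monocyte markers 1, 3 and 3 of 5 were lower, and of the non-classical ones 1 of 8, 4 of 8 and 4 of 7, to be read against the same shares of all genes, among them C1QA at 173, 90.6, 54.7 and 61.6 CPM. The T cell genes summed to 72.6, 48.5, 109 and 110 CPM and the B cell genes to 137, 156, 195 and 282 CPM in these cells, highest at 8 h, and their part in the results was not tested. A shift in which monocytes were captured and a change within them were not separated.

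Over 8 points, the CD14+ CSF1R+ cells and all other cells of each library, the genes whose level most resembled that of the summed members were F13A1 (Pearson r 0.985), EMB (0.972), ITGB2 (0.969), FCGRT (0.966) and CKB (0.965), among 10546 genes. The points share libraries, and each pair sets monocyte marker-positive cells beside the rest, so genes of these cells resemble the members by construction. CCR6, a receptor for beta-defensins, was at 5.48, 2.12, 2.27 and 2.46 CPM in CD14+ CSF1R+ cells. It was at least 2-fold lower at 2 h only, and with TMM factors at 4 h and 8 h only. CCR2 had too few UMIs there to be compared.

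Chromatin accessibility was the readout that the choice of the genes did not use. The scATAC-seq libraries were uneven, with 975012 counts without LPS, 30250143 after 2 h, 26837579 after 4 h and 11957904 after 8 h, over 3121 to 4172 barcodes, and each listed a different set of 11573 to 13821 genes. The rule behind these gene counts is not given in the sources used here, and 88.7% to 93.8% of the values above 0 were even numbers, so intervals that take counts as independent are too narrow. DEFB10 was listed in none. DEFB7 was listed in the 3 LPS libraries, with 74 counts in 43 of 4172 nuclei at 2 h, 204 counts in 93 of 3231 nuclei at 4 h and 1 count in 1 of 3163 nuclei at 8 h. These are 2.45 CPM (1.92 to 3.07), 7.60 CPM (6.59 to 8.72) and 0.0836 CPM (0.0021 to 0.466).

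Among the LPS libraries, DEFB7 accessibility CPM was highest at 4 h, where its RNA level over all cells was lowest. It was 3.11 times (2.37 to 4.11) the 2 h level. The step was not particular to DEFB7, since DEFB4A was at 2.58 times (1.90 to 3.54), while EBD was at 1.27 times (0.942 to 1.71). At 4 h, 75 of the 93 nuclei with DEFB7 counts had none at CD14 or CSF1R. Whether the step reflects a change at the gene was not tested. The DEFB7 level at 8 h was 0.0110 (0.0003 to 0.0620) of that at 4 h. DEFB13 was listed at 0 without LPS, where a count of 0 allows up to 3.08 CPM, and had 28 counts in 22 nuclei at 4 h, 1.04 CPM (0.693 to 1.51). It was not listed at 2 h and 8 h. No ratio to the library without LPS could be formed for any member. EBD, in the same cluster, was at 104, 2.88, 3.65 and 8.70 CPM and DEFB4A at 8.21, 2.05, 5.29 and 3.68 CPM, with 8 counts behind the DEFB4A value without LPS. The EBD values rest on 101, 87, 98 and 104 counts, in 1.79%, 1.22%, 1.80% and 1.87% of nuclei. These counts were alike while the library totals ranged from 975012 to 30250143, so the EBD CPM values are not read as a change with LPS.

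Nuclei with a count at CD14 or CSF1R were set beside the others. At 4 h those 253 nuclei had 7.98 CPM at DEFB7 and the others 7.52 CPM, with DEFB7 counts in 7.11% and 2.52% of nuclei. At 2 h the 358 such nuclei had 3.01 CPM and the others 2.34 CPM, in 3.07% and 0.839% of nuclei. DEFB7 CPM values were close between both kinds of nuclei, while the shares of nuclei, which were not evened for depth, were higher with CD14 or CSF1R. At 8 h neither gene was listed, and 0 nuclei could be placed.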

How the data were processed

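The scRNA-seq files, as deposited by the authors, hold raw counts of UMIs for each gene in each cell barcode, without normalization, made with Cell Ranger on ARS-UCD1.2 (bosTau9) per the submitters' processing notes. The scATAC-seq files hold counts for each gene in each nucleus barcode, deposited without normalization, and the counting rule is not given in the sources used here. No column of per-sample values was left unused.

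Cells were kept from 200 UMIs and 200 genes upward when less than 20% of their UMIs came from the 13 mitochondrial genes, and doublets were not removed. The study's upper limit of 3000 genes was used as an alternative, because it removes many of the CD14+ CSF1R+ cells. Cells were classed by at least 1 UMI of marker genes, without clustering, and the UMIs of a class in a library were added up and expressed as CPM. Ratios were compared as log2((CPM + 1)/(CPM + 1)), and a gene counted as higher or lower past 2-fold with at least 20 UMIs over both libraries. Intervals are exact Poisson intervals for sums, exact Clopper-Pearson intervals for shares and conditional binomial intervals for ratios, all at 95% and for counting error only, and a count of 0 was read as up to 3 counts. For shares each cell was thinned at random to 1000 or 2000 UMIs and shallower cells were left out. With 1 library per treatment and assay no test was made. The ratio step was tested on simulated data with independent Poisson counts, which lack the crowding of UMIs in few cells seen here.

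The genes named are the members, CD14 and CSF1R, genes on fixed lists (beta-defensins, other antimicrobial proteins, the TLR4 to NF-kB route, beta-defensin receptors and cell type markers), the neighbours of the members in the order of the fall, and the genes most like them. The members and the lists were chosen with earlier results of these data known. Python 3.11.15 with numpy 2.4.6, scipy 1.17.1 and pandas 2.3.3 was used, and edgeR 4.0.16 and DESeq2 1.42.0 in R 4.3.3 gave scaling factors only. Alternatives were the limits on cells, the rule for the class, scaling, weighting of cells, pseudocount, thinning and the minimum of UMIs. Leaving out the richest cells or the shared barcodes was added after the data were seen. Promoter and protein sequences were not used here.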

Additional observations from a re-analysis of the deposited data

Results flagged for a closer look

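DEFB10 gave different effects in the 2 kinds of cells with monocyte markers. At 2 h its level was 0.370 of that without LPS in CD14+ CSF1R+ cells and 1.07 in cells with CD14 or CSF1R but not both. At 8 h the ratios were 0.374 and 1.06. The difference was not tested, since each treatment had 1 library. In the cells with only 1 of the markers, a single cell held 444 of 763 DEFB10 UMIs at 2 h and another 342 of 380 at 8 h, and they held 458 and 874 UMIs of S100A8 and 1 each of CD14. Without the 10 richest cells of each library, the ratios in these cells were 0.399 at 2 h and 0.0605 at 8 h. These 10 cells are a larger part of the 551 and 472 such cells at 2 h and 8 h than of the 812 without LPS, which lowers the ratios.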

How the results depend on the processing

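No paired analysis was possible because each treatment had 1 library per assay. Precision was limited by the 156 to 876 CD14+ CSF1R+ cells per library, by the few cells that held most UMIs of DEFB10 and DEFB13, and by the depth of 213 counts per nucleus (median) in the scATAC-seq library without LPS. No log2 ratio of accessibility to no LPS, nor any of its 5 alternatives, could be computed, because DEFB7 and DEFB10 were not listed without LPS. No log2 ratio of a member or of the summed members changed sign under any alternative run. TAP at 4 h fell below its level without LPS when the 10 richest cells of each library were left out. That trimming takes a larger part of the CD14+ CSF1R+ cells with LPS than of those without, so no direction is read from it. With TMM factors the median over all genes in CD14+ CSF1R+ cells was -0.03 at 4 h and -0.02 at 8 h, in place of 0.07 and 0.19. Of 42 alternative values of the summed members in CD14+ CSF1R+ cells 19 stayed within counting error and 23 moved, and of 27 over all cells 14 stayed and 13 moved; the causes were not tested beyond what each alternative changes by construction.

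In CD14+ CSF1R+ cells the log2 ratio of the summed members, -1.01 at 2 h, -2.54 at 4 h and -1.41 at 8 h, was -1.17, -3.17 and -0.49 with at most 3000 genes per cell, -1.24, -2.79 and -1.07 without cells holding a T or B cell gene, -0.72, -2.65 and -1.63 with TMM factors, -1.26, -2.91 and -1.62 with cells weighted equally and -1.15, -2.89 and -1.65 without the 10 richest cells. At 2 h and 8 h it was -0.71 and -1.64 with DESeq2 size factors, -0.95 and -1.73 for cells with CD14 or CSF1R, -0.97 and -1.71 for cells with at least 3 UMIs of both together and -0.97 and -1.59 for cells with 3 other monocyte markers. Over all cells the ratio, -1.84, -3.70 and -1.88, was -2.23, -4.84 and -2.48 with at most 3000 genes, -1.79, -3.46 and -1.82 with a pseudocount of 10 and -1.93, -3.88 and -2.17 without the 10 richest cells. Without the richest cell it was -1.88 at 2 h and -1.96 at 8 h, and at 8 h it was -1.99 with TMM factors and -1.99 with DESeq2 size factors.

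The thinned share of CD14+ CSF1R+ cells with a member, 37.9%, 31.5%, 12.2% and 30.5% from no LPS to 8 h, was 46.1%, 39.1%, 27.1% and 39.6% when thinned to 2000 UMIs and 65.5%, 61.7%, 59.0% and 66.7% without thinning. For cells with CD14 or CSF1R it was 33.4% without LPS, 24.2% at 2 h and 17.4% at 8 h, and with at most 3000 genes it was 43.9% without LPS. The share of all cells in the class, 10.4%, 2.97%, 1.97% and 5.17%, was 6.66%, 1.66%, 0.704% and 1.35% with at most 3000 genes, 20.0%, 8.28%, 6.26% and 17.5% with CD14 or CSF1R, 14.8%, 5.71%, 4.31% and 6.29% with 3 UMIs of both together, 14.8%, 5.94%, 4.97% and 7.78% with 3 other markers, and 1.45%, 0.161%, 0.0916% and 0.521% when each cell was thinned to 1000 UMIs.

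The number of genes past 2-fold in CD14+ CSF1R+ cells also changed. At 2 h, 242 genes were higher, and 378 with TMM factors, 388 with DESeq2 size factors and 121 with a pseudocount of 10, while 587 were lower, and 309, 291 and 120 under the same settings and 1476 with at most 3000 genes. At 4 h, 333 were higher, and 114 with a pseudocount of 10, while 381 were lower, and 948 with at most 3000 genes and 126 with a pseudocount of 10. At 8 h, 335 were higher, and 157 with TMM, 154 with DESeq2 and 57 with a pseudocount of 10, while 190 were lower, and 287, 287 and 74 under the same settings and 776 with at most 3000 genes. Over all cells 103 genes were higher at 2 h, 157 at 4 h and 59 at 8 h, against 51, 74 and 11 with a pseudocount of 10, while 346, 470 and 146 were lower, against 122, 185 and 56. At 8 h over all cells 31 were higher with TMM and 30 with DESeq2, and 344 were lower with at most 3000 genes.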
